A study of Mus musculus with 30 samples.

Results

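The wild-type progenitor tissue of the mouse heart was compared with the wild-type piece of the heart tube that it feeds. The comparison used 8 of the 30 arrays of the series, chosen by their labels as the 4 wild-type arrays of the anterior second heart field (aSHF) and the 4 of wild-type outflow tract and right ventricle (OFT-RV) that measured mRNA. Embryos were taken on embryonic day 9.5, at 19 to 21 somite pairs. The aSHF was dissected from behind the heart tube and the OFT-RV from the tube. All 8 wild-type samples carried the genotype Dgcr8 f/+, with 1 floxed allele of Dgcr8, and no Cre was named for them. Dgcr8 is the RNA-binding partner of Drosha, and together they cut primary miRNA transcripts. Each array held RNA pooled from embryos of at least 5 litters, and the 4 arrays of a group are labelled as biological replicates. A further 8 mRNA arrays, 4 per tissue, came from mutant pools of the genotype Mef2c-AHF-Cre/+ with Dgcr8 f/f, with a Cre driven in this field and the cells that derive from it, and they give the same tissue contrast anew. The labels do not say whether both tissues of a replicate number share embryos.

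Cells of the second heart field lie in the splanchnic mesoderm of the pharynx, beside the pharyngeal endoderm and the neural crest of the arches. They divide, respond to fibroblast growth factor, Hedgehog and retinoic acid signals, and are added to the arterial pole of the tube, where they form the right ventricle and outflow tract. On the way they start to build sarcomeres, the contractile units of striated muscle, together with the calcium store and the mitochondria that drive them. Isl1, Fgf8 and Tbx1 are the classical marks of the progenitors, and Myh6, Myl2 and Nppa are marks of the cardiomyocytes of the tube.

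The deposited log2 values had been normalized separately in each tissue. Array medians were 7.47 to 7.53 in aSHF and 6.14 to 6.19 in OFT-RV, so a log2 value of one tissue is not on the scale of the other. Within every array the 20842 named genes were therefore ranked, and the rank was written as a percentile from 0 for the dimmest gene to 100 for the brightest. All differences below are OFT-RV minus aSHF, in percentile points unless another scale is named. A percentile tells where a gene's probe set stands among the others of its array, and it is compared here between tissues for the same gene and not between genes. Ranks near the top can hardly rise: by the limits of the scale, the 826 genes with a mean percentile of at least 95 cannot differ by more than 10 points. For such genes the difference is also given on a common log2 scale, on which each rank takes the mean log2 value that this rank has over the 8 arrays, and a fold named below comes from that scale. No detection call was used, so low ranks may hold background signal, and a fold from or to a percentile under 25 does not give the true size of a change. Tissue and separate normalization cannot be told apart in what the ranks retain. Ranks of arrays from the same tissue correlated with Spearman's rho of 0.9972 to 0.9987 in aSHF and 0.9955 to 0.9974 in OFT-RV, and those of arrays from different tissues with 0.9196 to 0.9263, as a description over genes that share their arrays. Precision is limited by 4 arrays per tissue.

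The labels were checked first, on the marks of each tissue. Tbx1 (ENSMUSG00000009097), a T-box factor required for outflow tract growth, stood at percentiles 89.1, 91.3, 90.7 and 89.8 on the aSHF arrays and 43.9, 44.4, 45.4 and 42.5 on the OFT-RV arrays. Its difference was -46.2 points (SE 0.733, adjusted p = 1.25e-09, limma). Isl1 (ENSMUSG00000042258), the LIM-homeodomain factor of the progenitors, stood at 86.9, 87.6, 87.4 and 87.3 in aSHF and 77.9, 72.8, 72.2 and 77.1 in OFT-RV, a difference of -12.3 points (SE 1.3, adjusted p = 4.05e-05). Isl1 thus stayed in the upper part of the OFT-RV arrays, below every aSHF array. Fgf8 (ENSMUSG00000025219), a growth factor of the progenitor field, stood at 68.8, 72.8, 69.7 and 67.3 in aSHF and 52.8, 54.9, 53.5 and 53.6 in OFT-RV, a difference of -16 points (SE 1.13, adjusted p = 3.35e-06).

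The marks of the tube went the other way. Myl2 (ENSMUSG00000013936), the ventricular regulatory light chain of myosin, stood at 35.5, 32, 41.8 and 33.6 in aSHF and 99.93, 99.88, 99.91 and 99.93 in OFT-RV. It rose by 64.2 points (SE 1.9, adjusted p = 2.20e-08), which was 166-fold on the common scale. Nppa (ENSMUSG00000041616), the gene of atrial natriuretic peptide, stood at 39.9, 44, 42.6 and 37.1 in aSHF and 98.98, 99.21, 99.29 and 99.12 in OFT-RV. It rose by 58.2 points (SE 1.37, adjusted p = 6.89e-09) and 61.6-fold. Myh6 (ENSMUSG00000040752), the alpha heavy chain of cardiac myosin, stood at 58, 60.8, 63.3 and 54.6 in aSHF and 98.42, 98.49, 98.45 and 98.3 in OFT-RV, and rose by 39.2 points (SE 1.67, adjusted p = 1.58e-07) and 18.4-fold. For all 6 marks the arrays of one tissue lay apart from those of the other, as they did for 72.1% of all genes. The two-sided exact permutation p was 0.0286 for each, the smallest p that 4 against 4 arrays allow. The mean percentile of the 3 progenitor marks was 81.4 to 83.9 on the aSHF arrays and 57 to 58.2 on the OFT-RV arrays, and that of the 3 marks of the tube was 41.7 to 49.2 and 99.1 to 99.2. The lowest percentile of any mark on any array was 32 (Myl2, aSHF replicate 2). In pooled tissue, fewer cells of a type and less RNA per cell cannot be told apart.

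**Figure D1:**
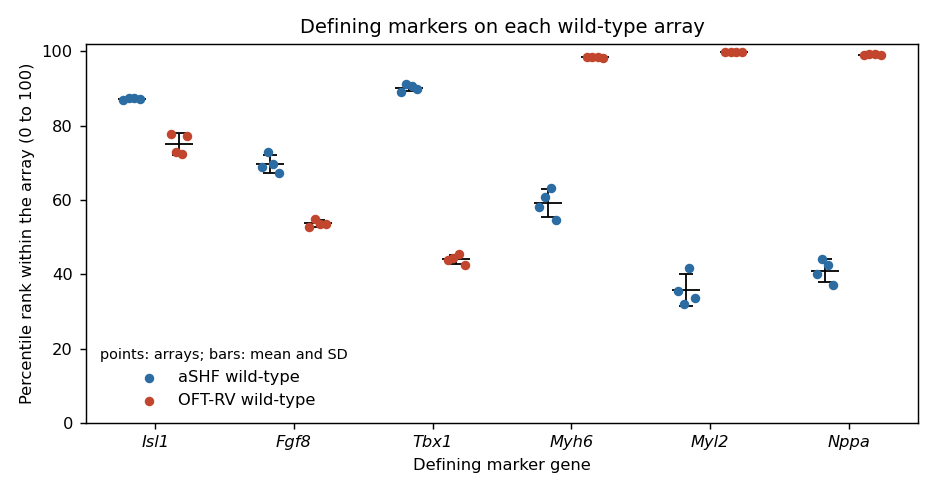
Percentile rank within the array (y axis, 0 to 100) of the 6 defining marks on the 4 wild-type aSHF and the 4 wild-type OFT-RV arrays; points are arrays, and bars give the mean and SD. Isl1, Fgf8 and Tbx1 are lower on every OFT-RV array, and Myh6, Myl2 and Nppa lie above 98 on every OFT-RV array and under 64 on every aSHF array.

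Across all genes the tissues differed widely. Of the 20842 genes, 15820 passed the test (75.9%), 7686 of them higher in OFT-RV (36.9%) and 8134 lower (39.0%). Among them 5251 differed by at least 10 points (25.2%), of which 2546 were higher (12.2%) and 2705 lower (13.0%). On the common scale 3399 genes (16.3%) differed by at least 1, 1706 up (8.19%) and 1693 down (8.12%). The median difference over all genes was -0.139 points and the median size 4.91, while 1 gene in 10 differed by more than 17.5 points and 1 in 100 by more than 40 points. With such a background, passing the test says little about a gene, and counts below are therefore of differences of at least 10 points, called large here, each read against 12.2% higher and 13.0% lower. Lack of overlap between the tissues says little either, since it held for 35.0% of all genes higher in OFT-RV and 37.1% lower.

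**Figure D2:**
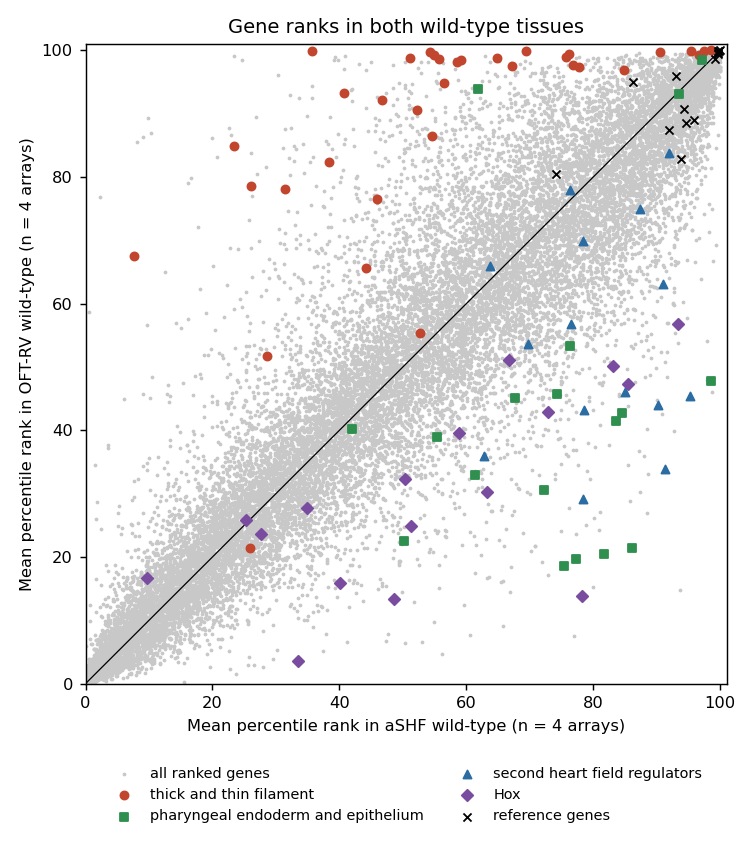
Mean percentile rank of each of the 20842 genes in wild-type aSHF (x axis, n = 4 arrays) and wild-type OFT-RV (y axis, n = 4 arrays), with equal ranks on the line. Thick and thin filament genes other than Myom2 lie above the line, most second heart field regulators, Hox genes and pharyngeal epithelial genes below it, and the reference genes near its upper end.

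Genes of the sarcomere were higher in the tube. Of 14 thick filament and M-band genes 11 were higher in OFT-RV by at least 10 points and none lower, with a median of 35.2 points. Of 21 thin filament and Z-disc genes 17 were higher and none lower, with a median of 30.6 points, and on the common scale 20 of the 21 rose by at least 1. The only member of either list that fell was Myom2, an M-band protein of mature muscle, at 24.7 to 27.3 in aSHF and 17.8 to 25.4 in OFT-RV, and its arrays overlapped between the tissues (difference -4.55 points, adjusted p = 0.0214).

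Since these genes rose together, the 250 bases before their transcription starts, from RefSeq on GRCm38.p6, were searched on both strands for letters bound by muscle factors. A window was on hand for 30 of the 35 filament genes. A match to the CArG box, the DNA element of serum response factor, was present in 7 of the 30 (23.3%), against 1.62% of 27025 genes with a window. A match to the site of MEF2 factors was present in 4 (13.3%), against 3.42% of all. The plain TATAAA was present in 4 (13.3%), against 14.3% of all, AGATAA in 6 (20%) against 11.4%, and CATTCC in 9 (30.0%) against 14.4%. In the 27 calcium, ion channel and chamber genes with a window, the CArG box and the MEF2 site each matched in 1 (3.70%). In the 30 second heart field, pharyngeal and Hox genes with a window they matched in 0 and 1 (3.33%). These are letter matches and not shown to be sites in use. The stretches with a CArG box match are shown on the strand of the gene, 5′ to 3′, with the match in capitals, since this motif was the one with the largest ratio of the filament genes' share to that of all genes among the 5 searched.
Actc1: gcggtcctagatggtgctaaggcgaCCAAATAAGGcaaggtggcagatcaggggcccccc
Acta1: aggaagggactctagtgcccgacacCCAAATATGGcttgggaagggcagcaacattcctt
Myl3: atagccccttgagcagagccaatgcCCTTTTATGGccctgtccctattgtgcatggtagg
Myl7: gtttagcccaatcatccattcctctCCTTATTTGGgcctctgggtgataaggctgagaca
Ldb3: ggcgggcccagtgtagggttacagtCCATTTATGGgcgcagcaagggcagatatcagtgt
Myom1: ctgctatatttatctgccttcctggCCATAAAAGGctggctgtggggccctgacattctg
Nebl: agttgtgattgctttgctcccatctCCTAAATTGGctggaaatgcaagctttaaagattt
Mybpc3, Myoz2, Ttn and Synpo2l hold a MEF2 site match instead, of which the first 3 are shown.
Mybpc3: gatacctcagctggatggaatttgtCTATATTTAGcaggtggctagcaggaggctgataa
Myoz2: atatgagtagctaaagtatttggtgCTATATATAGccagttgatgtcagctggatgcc
Ttn: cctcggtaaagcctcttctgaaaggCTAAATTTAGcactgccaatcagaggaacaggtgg
On GRCm38.p6 the first of these lies at chr2:114052888-114052947 (minus strand, match 47 to 38 bases before the start), that of Acta1 at chr8:123894814-123894873 (minus strand, match 73 to 64 bases before the start) and that of Myl3 at chr9:110763568-110763627 (plus strand, match 85 to 76 bases before the start). The others lie at chr11:5898809-5898868 (minus strand, match 61 to 52 bases before the start) for Myl7, chr14:34588682-34588741 (minus strand, match 35 to 26 bases before the start) for Ldb3, chr17:71019433-71019492 (plus strand, match 99 to 90 bases before the start) for Myom1 and chr2:17462984-17463043 (minus strand, match 162 to 153 bases before the start) for Nebl. The MEF2 matches lie at chr2:91118029-91118088 (plus strand, match 90 to 81 bases before the start) for Mybpc3, chr3:123034988-123035045 (minus strand, match 33 to 24 bases before the start) for Myoz2 and chr2:76982679-76982738 (minus strand, match 166 to 157 bases before the start) for Ttn. None of the matches shown overlapped a match to another motif searched.

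The genes whose promoters are shown did not differ to one extent. Myl3, the ventricular essential light chain, stood at 51.4, 54.1, 57.2 and 54.1 in aSHF and 99.76, 99.78, 99.78 and 99.77 in OFT-RV, a rise of 45.6 points (SE 1.09, adjusted p = 7.33e-09) and 59.2-fold. Acta1, skeletal actin, stood at 64.4, 65.9, 64.2 and 64.8 in aSHF and 98.89, 98.93, 98.78 and 98.78 in OFT-RV, a rise of 34 points (SE 0.44, adjusted p = 5.08e-10) and 17.2-fold. Actc1, the cardiac actin, was already bright in aSHF, at 98.25, 98.88, 98.85 and 98.43, and reached 100, 99.99, 99.99 and 100 in OFT-RV. Its rank could rise by 1.39 points only, and on the common scale it rose 3.6-fold (adjusted p = 1.65e-09). Myl7, the atrial regulatory light chain, stood likewise at 94.2 to 96.9 in aSHF and 99.9 in OFT-RV, a rise of 6.54-fold. Nebl, a Z-disc protein of the heart, stood at 51.9 to 53.8 in aSHF and 54.6 to 55.9 in OFT-RV and rose by 2.64 points (SE 0.526, adjusted p = 0.00186), with a CArG box match as in the others. Probes of near-identical genes can take up each other's RNA, so the values of the actins Acta1, Actc1, Acta2 and Actg2 are uncertain in their split.

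Other filament genes rose from high, middle and low ranks of the progenitor tissue. Troponin T (Tnnt2), an early mark of heart muscle, stood at 89.3 to 92.8 in aSHF and 99.7 to 99.8 in OFT-RV, 8.91-fold higher on the common scale (adjusted p = 2.62e-11). Tnni3, the adult cardiac troponin I, stood at 50.6, 50.7, 52.2 and 50.9 in aSHF and 98.69, 98.89, 98.94 and 98.86 in OFT-RV, a rise of 47.7 points (SE 0.439, adjusted p = 1.94e-10) and 32.9-fold. Its sister Tnni1, the slow skeletal form used by the embryonic heart, stood at 73 to 79 in aSHF and 97.7 to 97.8 in OFT-RV, 6.53-fold higher. Mybpc3, the cardiac myosin-binding protein, stood at 54.6, 58.5, 57.5 and 55.2 in aSHF and 94.6, 95, 94.8 and 94.9 in OFT-RV, a rise of 38.4 points (SE 0.864, adjusted p = 5.52e-09). Myom1, the M-band protein myomesin, stood at 37.9, 42.2, 43.9 and 39.2 in aSHF and 93.1, 93.3, 93.3 and 93 in OFT-RV, a rise of 52.4 points (SE 1.23, adjusted p = 6.89e-09). Lmod2, which lengthens thin filaments, stood at 23.3, 23.3, 22.7 and 24 in aSHF and 83.2, 86.6, 84.7 and 85.3 in OFT-RV, a rise of 61.6 points (SE 0.732, adjusted p = 3.73e-10). For each of these 6 genes every OFT-RV array lay above every aSHF array, as for 35.0% of all genes. Myoz2, a Z-disc protein that binds calcineurin, was among the dimmest of the list in aSHF, at 7.24 to 8.08, and stood at 64.4 to 69.7 in OFT-RV. Unc45b and Smyd1, a chaperone and a methyltransferase needed to fold and assemble myosin, rose by 31.9 and 30.3 points. Titin (Ttn) and alpha-actinin (Actn2) rose 17-fold and 24.7-fold.

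Genes of calcium handling and of ion currents were also higher in the tube. Of 22 such genes 15 were higher in OFT-RV by at least 10 points and none lower, with a median of 26.3 points. Slc8a1, the sodium-calcium exchanger that serves the first heartbeats, stood at 23.7, 22.7, 29.9 and 22.4 in aSHF and 98.55, 98.26, 98.44 and 98.42 in OFT-RV, a rise of 73.7 points (SE 1.56, adjusted p = 4.08e-09) and 79.6-fold. Trdn, triadin of the calcium release complex, stood at 8.14, 9.32, 9.59 and 9.46 in aSHF and 86.1, 86, 87 and 86 in OFT-RV, a rise of 77.2 points (SE 0.467, adjusted p = 2.95e-11). Ryr2, the release channel itself, stood at 49.1, 48.6, 51.1 and 49 in aSHF and 94.7, 95.1, 95 and 94.6 in OFT-RV, a rise of 45.4 points (SE 0.569, adjusted p = 4.61e-10). The arrays of the tissues lay apart for these 3 genes, as they did in this direction for 35.0% of all genes. Casq1, named for skeletal muscle, stood at 49.2 to 51.8 in aSHF and 98.1 to 98.2 in OFT-RV, a rise of 47.7 points (adjusted p = 4.61e-10), and Casq2, named for the heart, at 20.4 to 22.2 and 39.4 to 41, a rise of 18.5 points (adjusted p = 2.61e-08). Hrc, a calcium-binding protein of the store, rose by 52.7 points, and Pln, the inhibitor of the calcium pump, by 58.8 points. The pump Atp2a2 was bright in both tissues, at 97.6 to 98 in aSHF and 98.9 to 99 in OFT-RV, and rose 1.56-fold.

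Channel genes rose as well. The L-type calcium channel subunits Cacna1c, Cacna1d, Cacnb2 and Cacna2d2 rose by 28.6, 26.4, 33.2 and 40.5 points. The pacemaker channel Hcn4 rose by 16.7 points. Sln, the atrial inhibitor of the pump, did not pass the test (0.493 points, adjusted p = 0.79). Gja1, the connexin 43 gene, fell, from 94.5 to 95 in aSHF to 93 to 94 in OFT-RV (adjusted p = 0.011).

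Of 14 genes of chamber and trabecular muscle 12 were higher in OFT-RV by at least 10 points and none lower, with a median of 33.7 points. Smpx, a small cytoskeletal protein of striated muscle, stood at 25.3, 19, 28.4 and 21 in aSHF and 99.05, 99.1, 99.21 and 99.14 in OFT-RV, a rise of 75.7 points (SE 1.86, adjusted p = 8.48e-09) and 118-fold. Bmp10, the growth factor of the trabeculae, stood at 18.3, 15.4, 16.5 and 16.5 in aSHF and 78.5, 80.6, 81 and 79.3 in OFT-RV, a rise of 63.2 points (SE 0.784, adjusted p = 4.55e-10). Nppb, the brain natriuretic peptide gene, stood at 42.9, 44.1, 41.5 and 43.6 in aSHF and 97.68, 98.17, 97.91 and 97.4 in OFT-RV, a rise of 54.8 points (SE 0.588, adjusted p = 2.73e-10). The 3 genes were apart between the tissues on every array, as were 35.0% of all genes in this direction. The neuregulin pathway that builds trabeculae was measured at 3 steps. The ligand Nrg1 rose by 9.52 points, the co-receptor Erbb2 by 12 points, and the receptor Erbb4, which stood at 34.2 to 38.8 in aSHF and 92.1 to 92.7 in OFT-RV, by 56.7 points (SE 0.966, adjusted p = 1.52e-09). Hand1, a left ventricular and outflow factor, fell by 3.98 points (adjusted p = 0.00275).

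Smooth muscle genes, many of which the early heart muscle also uses, were brighter in the tube too. Of 11 such genes 7 were higher by at least 10 points and none lower, with a median of 14.9 points. Tagln, or SM22, stood at 83.3, 85.3, 83.4 and 83.5 in aSHF and 98.86, 98.85, 98.68 and 98.73 in OFT-RV, a rise of 14.9 points (SE 0.515, adjusted p = 5.03e-08). Cnn1, calponin, stood at 70.8, 73.1, 73.4 and 70.5 in aSHF and 97.23, 97.16, 97.35 and 97.18 in OFT-RV, a rise of 25.3 points (SE 0.728, adjusted p = 1.92e-08). Myh11, the myosin heavy chain of differentiated smooth muscle, was in the lower part of the aSHF arrays, at 34 to 38, and rose by 13.7 points. Mylk, the kinase of the smooth muscle light chain, was the 1 member that fell (-5.68 points, adjusted p = 4.92e-04).

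Transcription factors of the cardiac core differed unequally. Of 20 factors 7 were higher in OFT-RV by at least 10 points and 1 lower, with a median of 3.49 points. Tbx20, a T-box factor of chamber muscle, stood at 70.9, 72.5, 72.8 and 72.8 in aSHF and 96.47, 96.42, 96.51 and 96.5 in OFT-RV, a rise of 24.2 points (SE 0.495, adjusted p = 3.57e-09). Irx4, a ventricular homeobox factor, stood at 48, 48.6, 47.7 and 46.5 in aSHF and 81.9, 83.3, 83 and 81.7 in OFT-RV, a rise of 34.8 points (SE 0.593, adjusted p = 1.52e-09). Hey2, a repressor of the compact ventricle, stood at 69.6, 66.2, 71.4 and 65.3 in aSHF and 93.3, 92.5, 93.7 and 93.4 in OFT-RV, a rise of 25.1 points (SE 1.28, adjusted p = 4.56e-07). Gata4, Myocd, Hopx and Tbx5 rose by 21.2, 24.6, 22.9 and 15.7 points. Nkx2-5 and Hand2, which both the progenitors and the muscle use, differed by few points or did not pass the test. Nkx2-5 stood at 76.9, 80.9, 80 and 78 in aSHF and 75.4, 78, 76.2 and 75.2 in OFT-RV, and the arrays overlapped (difference -2.79 points, adjusted p = 0.0327). Hand2 stood at 77.2 to 78.3 and 76.9 to 78.7 and did not pass the test (difference 0.0108 points, adjusted p = 0.985). The factor Tbx3, which keeps muscle from turning into chamber myocardium, stood at 82.5, 83.4, 83.9 and 81.5 in aSHF and 60.5, 60.6, 58 and 56 in OFT-RV, a difference of -24.1 points (SE 1.11, adjusted p = 2.42e-07). Gata5 and Gata6, relatives of Gata4, were lower in OFT-RV by less than 10 points (-4.88 and -8.05).

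Regulators of the second heart field were lower in the tube. Of 15 regulators 11 were lower in OFT-RV by at least 10 points and none higher, with a median of -26.8 points. Osr1, a zinc finger factor of the posterior field, stood at 93.7, 89.8, 92.4 and 89.6 in aSHF and 36, 33.5, 32.5 and 33.4 in OFT-RV, a difference of -57.5 points (SE 1.14, adjusted p = 3.10e-09) and 17.1-fold lower. Six2, a partner of Eya proteins, stood at 77, 78.8, 79.1 and 79.1 in aSHF and 43.7, 41.5, 43.6 and 44.1 in OFT-RV, a difference of -35.2 points (SE 0.744, adjusted p = 4.05e-09). Nr2f2, or COUP-TFII, stood at 90.5, 91.1, 90.5 and 91.5 in aSHF and 64.4, 64.2, 62 and 61.8 in OFT-RV, a difference of -27.8 points (SE 0.704, adjusted p = 9.69e-09). Every aSHF array lay above every OFT-RV array for these 3 genes, as for 37.1% of all genes. Eya1, which acts with Tbx1 upstream of growth factor genes, differed by -49.8 points, and Prdm1, a repressor found in the field, by -49.3 points. Eya1 varied among the OFT-RV arrays, from 37.4 to 53.8, with replicate 1 highest. Fgf10, a growth factor that marks the anterior field, stood at 63.3, 63.5, 65.2 and 63 in aSHF and 64.6, 67.7, 67 and 64.6 in OFT-RV, where it rose by 2.23 points with overlapping arrays (adjusted p = 0.0489). Sall1 did not pass the test (1.64 points, adjusted p = 0.168).

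**Figure D3:**
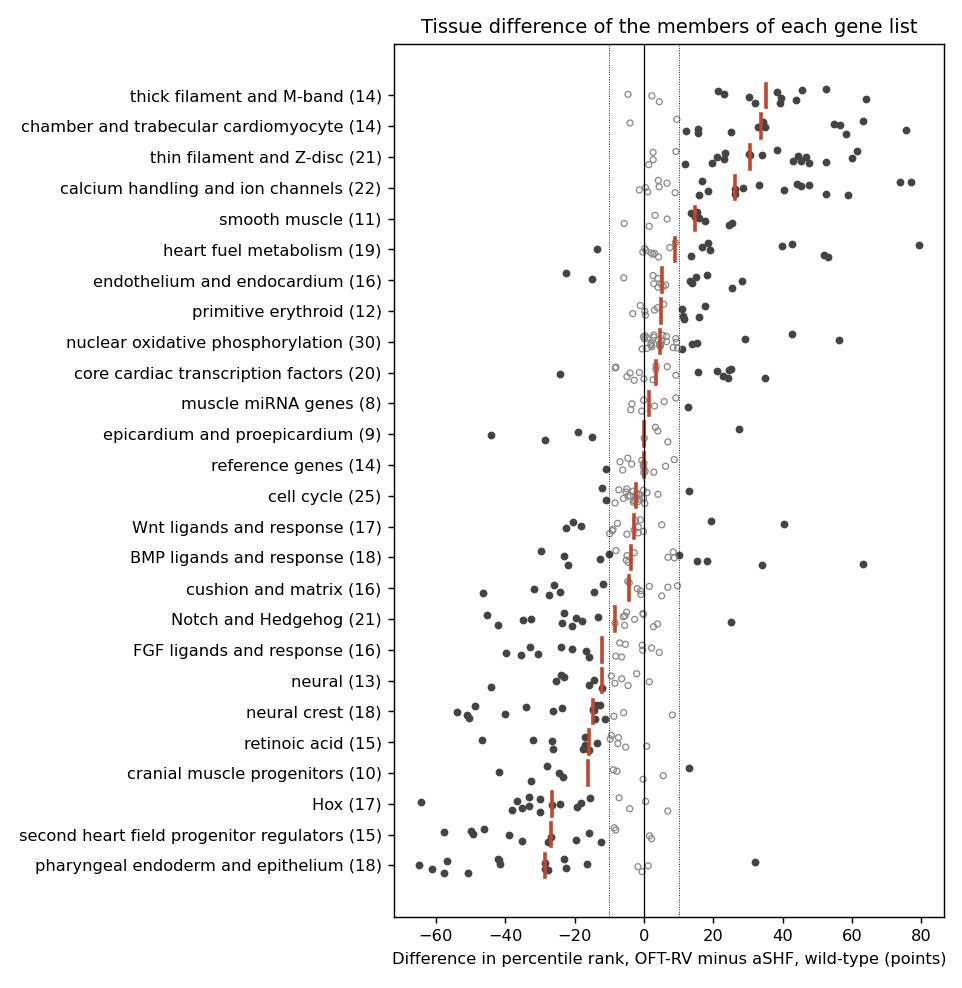
Difference in percentile points (x axis, OFT-RV minus aSHF, wild-type) of every measured member of each gene list (y axis); each point is 1 gene, filled where it passed the test with at least 10 points (dotted lines) and open otherwise, and the bar marks the list's median. Contractile, calcium and chamber lists lie to the right, with medians of 26.3 to 35.2 points, and second heart field, pharyngeal and Hox lists to the left, with medians of -26.4 to -28.5 points.

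Genes of several signals that act on the progenitors were lower in the tube. Of 16 genes of fibroblast growth factor ligands and response 8 were lower in OFT-RV by at least 10 points and none higher, with a median of -12 points. The receptor Fgfr2 stood at 81.5, 81.4, 80.7 and 82.9 in aSHF and 58, 57.7, 56.6 and 58.1 in OFT-RV, a difference of -24 points (SE 0.58, adjusted p = 7.66e-09), and Fgfr1 differed by -8.09 points. Among the feedback inhibitors that the pathway induces, Spry1 stood at 85.3, 85.9, 85.6 and 84.3 in aSHF and 49.7, 50.3, 50 and 49 in OFT-RV, a difference of -35.5 points (SE 0.473, adjusted p = 5.98e-10). Il17rd, or Sef, differed by -39.7 points, Spred1 by -32.8 points and Spry4 by -16.6 points, while Spry2 did not pass the test (-0.462 points, adjusted p = 0.531). Of the pathway's target factors Etv5 differed by -20.7 points, and Etv1 rose by 4.46 points.

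Of 15 retinoic acid genes 9 were lower in OFT-RV by at least 10 points and none higher, with a median of -15.7 points. The synthesizing enzyme Aldh1a2 stood at 68.7, 59.8, 65.1 and 59.4 in aSHF and 17.3, 15.1, 16.4 and 17.8 in OFT-RV, a difference of -46.6 points (SE 2.02, adjusted p = 1.79e-07). The upstream enzyme Rdh10 stood at 84.2, 85.8, 83.3 and 86.4 in aSHF and 59.6, 59.9, 58.4 and 55.9 in OFT-RV, a difference of -26.5 points (SE 1.04, adjusted p = 1.04e-07). Both enzymes were higher on every aSHF array than on any OFT-RV array, as were 37.1% of all genes. Also higher in aSHF were the uptake receptor Stra6 (-31.9 points), the nuclear receptor Rarb (-16.8 points) and the degrading enzymes Cyp26a1, Cyp26b1 and Cyp26c1 (-17, -13.4 and -26.1 points). The binding proteins Crabp1 and Crabp2 sat near the top in aSHF, so their ranks fell little, and on the common scale they were 7.88-fold and 4.05-fold lower in OFT-RV.

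Of 21 Notch and Hedgehog genes 10 were lower by at least 10 points and 1 higher, with a median of -8.33 points. All 8 Hedgehog genes of the list were lower past the test, against 39.0% of all genes. The transducers Gli1, Gli2 and Gli3 differed by -23.6, -23 and -32.6 points, the receptor Ptch1 by -20.7 and its partner Smo by -17.8 points. The inhibitor Hhip differed by -42.1 points. Foxf1, a forkhead target in pharyngeal mesoderm, stood at 91.5, 89.1, 89.9 and 89.4 in aSHF and 43.1, 45.4, 45.1 and 45.6 in OFT-RV, a difference of -45.2 points (SE 0.739, adjusted p = 1.35e-09). On the Notch side Lfng, which modifies the receptor, differed by -34.8 points and Hes1, a target, by -19.7 points, Hey2 rose as above, and Jag2, Hes5 and Nrarp did not pass the test. Of 18 bone morphogenetic protein genes 5 were higher and 5 lower by at least 10 points, with a median of -3.64 points. The ligands Bmp2, Bmp5 and Bmp10 rose by 34, 18.1 and 63.2 points, whereas Bmp4 fell by 4.85 points. Bmp2, the ligand of the cushion-forming muscle, stood at 52, 50.5, 51.2 and 50.6 in aSHF and 84.6, 85.1, 85 and 85.8 in OFT-RV (SE 0.466, adjusted p = 6.50e-10). At any size, 8 of the 18 genes passed the test higher in OFT-RV and 10 lower, against 36.9% and 39.0% of all genes. The response genes Id1, Id2, Id3, Id4, Msx1 and Msx2 were among those 10. Of them Id2 was 3.6-fold lower on the common scale, and Msx2 differed by -21.8 points. The antagonist Grem1 differed by -29.7 points, and the antagonist Nog rose by 15.2 points. Of 17 Wnt genes 2 were higher and 3 lower by at least 10 points, with a median of -2.85 points. Rspo3, an enhancer of Wnt signals, stood at 39.3, 41.5, 39.5 and 41.9 in aSHF and 80.6, 80.9, 80.4 and 82.5 in OFT-RV, a rise of 40.6 points (SE 0.781, adjusted p = 2.76e-09), and Wnt11, a ligand of outflow tract muscle, rose by 19.3 points. The inhibitors Sfrp1 and Dkk1 differed by -22.4 and -20.5 points and the target Lgr5 by -18.3 points, while the target Axin2 differed by -1.59 points.

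Hox genes, which set position along the body axis and whose anterior members mark the outflow progenitors, were lower in the tube. Of 17 measured, 13 were lower in OFT-RV by at least 10 points and none higher, with a median of -26.4 points. Hoxa2 stood at 77.3, 77.8, 78.3 and 79.2 in aSHF and 14, 14.1, 12 and 15.3 in OFT-RV, a difference of -64.3 points (SE 0.762, adjusted p = 3.73e-10). Hoxb1 stood at 85.5, 86.4, 86.1 and 84 in aSHF and 46.3, 48.5, 49.1 and 45.6 in OFT-RV, a difference of -38.1 points (SE 0.909, adjusted p = 7.18e-09). Hoxa3 and Hoxb3 differed by -35.2 and -33 points. Hoxc6 was dim in both tissues and rose by 6.9 points, and Hoxd1 did not pass the test (0.519 points, adjusted p = 0.75).

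Marks of other cell types moved with these differences. Of 18 genes of pharyngeal endoderm and epithelium 14 were lower in OFT-RV by at least 10 points and 1 was higher, with a median of -28.5 points, and the mean percentile of the list was 73.5 to 75 on the aSHF arrays and 42.8 to 48.5 on the OFT-RV arrays. Esrp1, a splicing regulator of epithelia, stood at 86.6, 85.4, 86.8 and 85.7 in aSHF and 32, 18.9, 15.1 and 19.5 in OFT-RV, a difference of -64.8 points (SE 3.24, adjusted p = 4.01e-07). Epcam, the epithelial adhesion molecule, stood at 81.6, 81.7, 81.8 and 81.9 in aSHF and 28.1, 17.8, 17.1 and 19.1 in OFT-RV, a difference of -61.2 points (SE 2.24, adjusted p = 6.76e-08). Foxa1, a forkhead factor of foregut endoderm, stood at 77.1, 78.4, 78.2 and 75.5 in aSHF and 19.8, 24, 17.4 and 17.4 in OFT-RV, a difference of -57.7 points (SE 1.51, adjusted p = 1.16e-08). Every aSHF array lay above every OFT-RV array for these 3 genes, as for 37.1% of all genes. Most of their OFT-RV percentiles were under 25 and may hold background signal. Cldn6, a tight junction protein of early epithelia, stood at 98.4 to 98.6 in aSHF and 41 to 59.2 in OFT-RV, 32.5-fold lower on the common scale. Sox2, Pax1 and Pax9, factors of the foregut and the pharyngeal pouches, differed by -56.8, -42.1 and -41.5 points, and Cdh1, E-cadherin, by -41.7 points. Of the keratins, Krt19 stood at 63.2, 63, 62.7 and 58.6 in aSHF and 93.5, 95.3, 93.4 and 93.3 in OFT-RV, a rise of 32 points (SE 1.09, adjusted p = 4.67e-08), Krt8 rose by 1.24 points (adjusted p = 0.0112), and Krt18 did not pass the test (-0.516 points, adjusted p = 0.245). Whether the epithelial RNA had a part in the differences of the second heart field, Hox and signalling genes was not tested.

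On the OFT-RV arrays replicate 1 was the brightest for 9 of the 18 epithelial genes, among them Esrp1, Epcam, Cldn6, Cdh1 and Sox2, and replicate 2 for 7, among them Foxa1, Pax1, Pax9 and Krt19. Sox2 stood at 28.9, 15.5, 15.9 and 13.8 on the 4 OFT-RV arrays, against 74.3 to 76.2 on those of aSHF. Without OFT-RV replicate 1 the count of 14 lower genes was the same. Of 18 neural crest genes 15 were lower in OFT-RV by at least 10 points and none higher, with a median of -14.8 points. Tfap2a, a crest and surface ectoderm factor, stood at 86, 84.3, 86.5 and 85.3 in aSHF and 36.2, 34.3, 33.7 and 34 in OFT-RV, a difference of -51 points (SE 0.7, adjusted p = 6.54e-10). Dlx1, a homeobox factor of the arch crest, stood at 79.9, 80, 77.7 and 77.9 in aSHF and 25.4, 26.2, 22.4 and 26.2 in OFT-RV, a difference of -53.8 points (SE 1, adjusted p = 2.32e-09), and Dlx5 and Dlx3 differed by -40.2 and -23.7 points. Sox10 and Foxd3, factors of migrating crest cells, differed by -14 and -14.8 points. Ednra, the endothelin receptor of the crest and of heart muscle precursors, rose by 8.23 points. Of 10 genes of cranial muscle progenitors 5 were lower by at least 10 points and 1 higher, with a median of -16.1 points. Ebf3 differed by -41.7, Tcf21 by -32.6, Ebf2 by -27.8 and Myf5, the first myogenic factor of head muscle, by -24.3 points. Of 13 neural genes 7 were lower by at least 10 points and none higher, with a median of -12.2 points, led by Neurod1 of the cranial ganglia, which stood at 48.8, 49.8, 48.7 and 54.2 in aSHF and 5.34, 6.06, 8.25 and 5.99 in OFT-RV (difference -44 points, SE 1.3, adjusted p = 2.19e-08).

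Genes of the cells that line or cover the tube moved in both directions. Of 16 endothelial and endocardial genes 6 were higher in OFT-RV by at least 10 points and 2 lower, with a median of 5.28 points. Icam2 and Pecam1, adhesion molecules of endothelium, rose by 28.3 and 25.5 points, and Nfatc1, a factor of the endocardium, by 14.9 points. Pecam1 stood at 56.9, 56.1, 57.2 and 58.5 in aSHF and 82.8, 83.1, 81.8 and 83.2 in OFT-RV (SE 0.59, adjusted p = 6.35e-09). The endothelial genes Emcn and Cldn5 differed by -15 and -22.4 points. Of 16 cushion and matrix genes none was higher and 7 lower by at least 10 points, with a median of -4.42 points. Snai1, Snai2 and Sox9, factors of mesenchyme, differed by -31.6, -27.3 and -24.1 points, and Lum, a matrix proteoglycan, by -46.5 points, whereas Vcan, the versican of cardiac jelly, stood at 97.4 to 98.2 in aSHF and 99.4 in OFT-RV, 2.11-fold higher on the common scale. Of 9 epicardial and proepicardial genes 1 was higher and 4 lower by at least 10 points, with a median of 0.112 points and of -1.05 to 1.46 points when single arrays were left out. Upk1b, a mesothelial gene, rose by 27.6 points, and Sema3d, Bnc1 and Tbx18 differed by -44.1, -28.6 and -19 points, while Wt1 rose by 6.92 points.

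Genes of primitive red blood cells were measured in both tissues and varied among the pools. Of 12 erythroid genes 5 were higher in OFT-RV by at least 10 points and none lower, with a median of 4.86 points. Epb42 and Rhag, proteins of the red cell membrane, rose by 15.8 and 17.7 points. Gata1, the erythroid master factor, stood at 49.3, 43.7, 48.2 and 44.9 in aSHF and 54.6, 59.3, 59.3 and 59.2 in OFT-RV, a rise of 11.6 points (SE 1.58, adjusted p = 1.93e-04). Within each tissue the same pool was highest for most members. On aSHF replicate 1 was highest for 11 of the 12 genes and replicate 2 lowest for all 12, and on OFT-RV replicate 3 was highest for 11. The lowest OFT-RV array was replicate 1 for 6 genes and replicate 2 for 6. The list's mean percentile was 63.7 to 70.2 on the aSHF arrays and 72 to 76 on the OFT-RV arrays. Hba-x, an embryonic globin, was 1.94-fold lower in OFT-RV on the common scale, and the embryonic globins Hbb-bh1 and Hbb-y were 1.63-fold and 1.54-fold higher there but did not pass the test in ranks (adjusted p = 0.205 and 0.417). Whether the blood in a pool had a part in other differences was not tested.

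Genes of energy supply were brighter in the tube. Of 19 genes of heart fuel metabolism 9 were higher in OFT-RV by at least 10 points and 1 lower, with a median of 9.1 points. Ppargc1a, the coactivator that drives mitochondrial growth, had the largest rise in percentile points among the 20842 genes: it stood at 10.7, 6.11, 13.4 and 8.9 in aSHF and 90.4, 87.4, 89.2 and 90 in OFT-RV, a rise of 79.5 points (SE 1.49, adjusted p = 2.36e-09). Its aSHF ranks were dim and may be background. Pygm, the muscle glycogen phosphorylase, stood at 39.2, 43.1, 43.3 and 42.3 in aSHF and 93.9, 94.1, 94.1 and 93.6 in OFT-RV, a rise of 51.9 points (SE 0.881, adjusted p = 1.52e-09). Fabp3, the heart fatty acid carrier, stood at 51.5, 50.4, 51.5 and 50.6 in aSHF and 92.8, 93.8, 93.9 and 93.8 in OFT-RV, a rise of 42.6 points (SE 0.452, adjusted p = 2.73e-10). The tissues lay apart on every array for these 3 genes, as they did in this direction for 35.0% of all genes. Cpt1b, which takes fat into mitochondria, rose by 39.8 points and Acadm, which burns it, by 16.9 points. Of the hexokinases Hk1 rose by 18.6 points and Hk2 differed by -13.5 points.

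Of 30 nuclear genes of oxidative phosphorylation 6 were higher by at least 10 points and none lower, with a median of 4.7 points. Most were bright in both tissues, and on the common scale 15 of the 30 rose by at least 1, against 8.19% of all genes, and none fell by 1. Cox7a1, a muscle form of a cytochrome oxidase subunit, stood at 40.7, 40.4, 43.5 and 38.5 in aSHF and 96.75, 97.39, 97.05 and 97.27 in OFT-RV, a rise of 56.4 points (SE 0.948, adjusted p = 1.47e-09). Cox6a2, another muscle form, rose by 42.8 points. Their widely used counterparts Cox7a2 and Cox6a1 rose 3.99-fold and 4.36-fold. Uqcrfs1, the iron-sulphur protein of the bc1 complex, stood at 69.5, 69.1, 68.6 and 69.6 in aSHF and 98.13, 98.32, 98.37 and 98.32 in OFT-RV, a rise of 29.1 points (SE 0.356, adjusted p = 4.20e-10). The mitochondrial proteins Higd1a and Cox17, outside the list, were among the largest rises on the common scale, at 59.3-fold and 46.3-fold.

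Most cell cycle genes were slightly lower in the tube. Of 25 genes 1 was higher and 2 lower in OFT-RV by at least 10 points, with a median of -2.4 points and of -0.582 on the common log2 scale. Of the 25, 19 were lower past the test, against 39.0% of all genes. Mcm7, a subunit of the replication helicase, stood at 97.62, 97.67, 97.67 and 97.64 in aSHF and 93.1, 92.7, 92.2 and 92.2 in OFT-RV, 2.32-fold lower on the common scale (adjusted p = 2.68e-10). Ccnb2, a mitotic cyclin, was 2.59-fold lower, while Mki67 and Pcna did not pass the test in ranks (0.268 and -0.0876 points, adjusted p = 0.451 and 0.8). Cdkn1c, the inhibitor p57, stood at 84.7, 85.9, 86.2 and 86 in aSHF and 98.69, 98.7, 98.64 and 98.63 in OFT-RV, a rise of 13 points (SE 0.426, adjusted p = 3.74e-08) and 5.74-fold, and Cdkn1b, the inhibitor p27, differed by -10.8 points. Ccnd2, the cyclin D of heart muscle, stood at 98.7 to 98.9 in aSHF and 99.7 in OFT-RV, 1.94-fold higher, and Ccnd1 was 1.58-fold lower.

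Outside the lists, the largest rises in rank after Ppargc1a included Atxn1, the nuclear protein ataxin 1, which stood at 6.3, 7.19, 9.73 and 9.2 in aSHF and 87.2, 84.7, 85.4 and 84.9 in OFT-RV, a rise of 77.4 points (SE 0.909, adjusted p = 3.72e-10). 1810037I17Rik rose by 76.6 points, Pgap1, an enzyme of lipid anchors, by 74.6 points and Fsd2 by 66.3 points. Sh3bgr rose by 65.7, Abra, an activator of serum response factor signals in striated muscle, by 65.1 and Mlip, which binds lamins in muscle, by 63.8 points. Nexn, a Z-disc protein, rose 44.6-fold. Among the largest falls, St6gal2, a sialyltransferase, stood at 81.1, 79.8, 79.3 and 79.7 in aSHF and 15.9, 16.5, 14.6 and 14.3 in OFT-RV, a difference of -64.6 points (SE 0.641, adjusted p = 1.97e-10). Lrig3, a membrane protein of growth factor signalling, differed by -61.4 points and Arg1, arginase, by -56.9 points. These genes were chosen among those whose arrays did not overlap between the tissues, so their lack of overlap is no separate result.

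The largest fall of all was that of a small nucleolar RNA, one of the short guides of ribosomal RNA modification. Snord82 stood at 95.2, 93.4, 94.9 and 91.4 in aSHF and 18.9, 12.7, 11.7 and 15.8 in OFT-RV, a difference of -79 points (SE 1.65, adjusted p = 3.89e-09) and 44.8-fold lower. Snord118 stood at 78.1, 79.9, 79 and 70.8 in aSHF and 8.68, 6.2, 7.76 and 7.68 in OFT-RV, a difference of -69.4 points (SE 1.9, adjusted p = 1.46e-08). The class as a whole leaned the same way: of 64 small nucleolar RNA genes 29 were lower in OFT-RV by at least 10 points (45.3%) and 11 higher (17.2%), with a median of -8.58 points, against 13.1% lower and 12.2% higher of 19852 protein-coding genes. Snord57, Snord49b, Snora52 and Snora16a were 39.9-fold, 19.9-fold, 18.1-fold and 14.2-fold lower, and Terc, the RNA of telomerase, 26.1-fold lower. Many of these short RNAs lie in introns of host genes.

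Muscle miRNA genes, whose probe sets on these arrays can pick up primary or precursor RNA and not the mature miRNA alone, were mostly dim in wild-type tissue. Of 8 measured 1 was higher in OFT-RV by at least 10 points and none lower, with a median of 1.5 points. Mir133a-1 stood at 8.22, 5.97, 7.4 and 7.37 in aSHF and 21.1, 17.8, 19.4 and 21.5 in OFT-RV, a rise of 12.7 points (SE 0.899, adjusted p = 3.23e-06). Mir1a-2 stood at 0.13, 0.12, 0.12 and 0.23 in aSHF and 7.97, 2.08, 5.58 and 8.44 in OFT-RV, a rise of 5.87 points (SE 1.3, adjusted p = 0.00341). Mir208a, within the Myh6 gene, fell by 3.43 points while its host rose. These ranks are low on the arrays, and 6.78% of 5085 dim genes (mean percentile under 25) differed by at least 10 points, against 31.1% of the others.

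The 14 reference genes, which are often taken as equal between samples, had a median difference of -0.0942 points, with 1 lower by at least 10 points and none higher. Actb and Gapdh did not pass the test in ranks (-0.0276 and 0.0072 points, adjusted p = 0.936 and 0.983). Tbp, the TATA-binding protein, stood at 94, 93.6, 93.8 and 93.7 in aSHF and 82.3, 83.4, 81.3 and 84.1 in OFT-RV, a difference of -11 points (SE 0.609, adjusted p = 7.25e-07), and Hprt, at 85.1 to 87.2 and 94.5 to 95.6, rose by 8.77 points. On the common scale Tbp was 2.31-fold lower and Hprt 2.25-fold higher.

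Genes of the sex chromosomes differed among the pools of each tissue. Xist, of the inactive X chromosome, stood at 97.7, 88.1, 82.3 and 89.6 in aSHF and 98, 89.9, 80.8 and 90 in OFT-RV. Uty, on the Y chromosome, stood at 13.2, 67.5, 68.8 and 74 in aSHF and 7.45, 55, 60.3 and 58.3 in OFT-RV. In both tissues replicate 1 was thus highest for Xist and lowest for Uty, and it was also lowest for Ddx3y, Kdm5d and Eif2s3y. With all arrays none of the 5 passed the test between tissues, with adjusted p from 0.581 to 0.955 and no block for the replicate number. With that block Ddx3y (5.84 points, adjusted p = 0.00491) and Uty (-10.6 points, adjusted p = 0.00308) passed. Without replicate 1 of both tissues, an alternative chosen after seeing the data, Eif2s3y differed by -14.5 points (adjusted p = 0.00071), Uty by -12.2 (adjusted p = 0.00257) and Ddx3y by 5.78 points (adjusted p = 0.0189). Among all 20842 genes that alternative called 14914, against 15820.

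**Figure D4:**
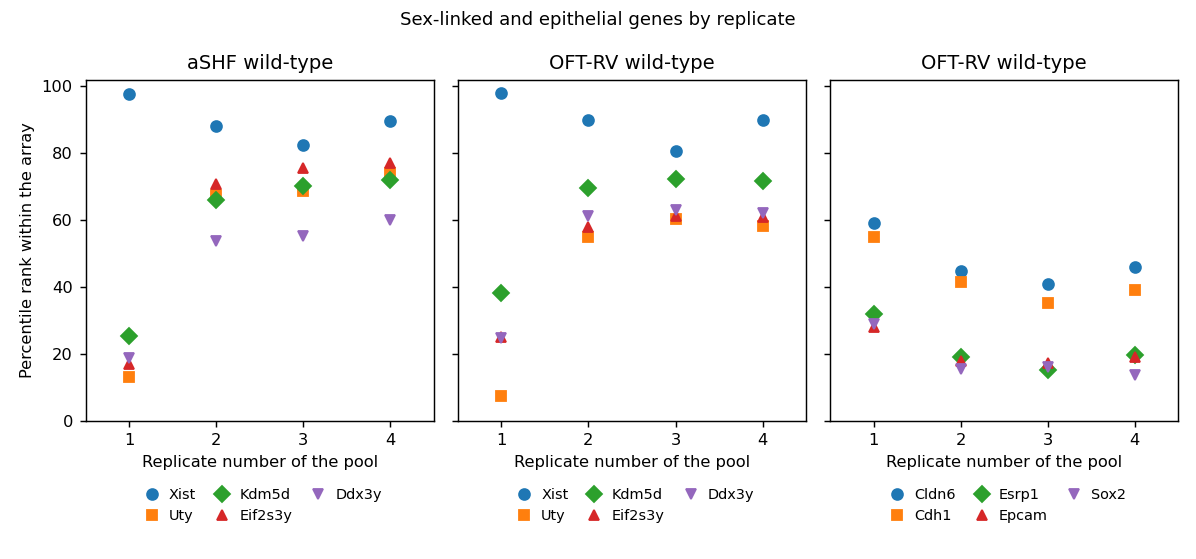
Percentile rank within the array (y axis) against the replicate number of the pool (x axis) for Xist and 4 Y-linked genes in wild-type aSHF (left) and OFT-RV (middle), and for 5 epithelial genes in wild-type OFT-RV (right); each point is 1 gene on 1 array. Replicate 1 is highest for Xist and lowest for the Y-linked genes in both tissues, and highest in OFT-RV for the 5 epithelial genes plotted, which were chosen from the 9 of 18 list members for which it was highest (replicate 2 was highest for 7).

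The same tissue contrast was measured in the mutant pools, on arrays that the wild-type comparison did not use. Their log2 medians differed by tissue as well, at 7.47 to 7.54 in aSHF and 6.13 to 6.17 in OFT-RV. Tissue and separate normalization thus cannot be told apart in the mutant pools either. The targeted gene, Dgcr8, stood at 84.3 to 86.6 on the mutant aSHF arrays against 85.5 to 87.6 on the wild-type ones, with overlap, and at 66.1 to 68.6 on the mutant OFT-RV arrays against 72.1 to 74.4. The files do not tell which part of Dgcr8 its probe set reads, so its level does not check the labels. In the mutant pools 15901 of 20842 genes passed the test (76.3%), and 2630 were higher (12.6%) and 2732 lower (13.1%) by at least 10 points. Of the 2546 genes higher in wild-type OFT-RV by that much, 2377 were so in the mutant pools, which is 93.4% of the wild-type and 90.4% of the mutant genes. Of the 2705 lower genes 2504 were so in the mutant pools, 92.6% of the wild-type and 91.7% of the mutant genes, and 6 had the opposite sign. All 6 marks passed the test in the same direction, and the mutant differences were -15.6 points for Isl1, -19.3 for Fgf8, -47.7 for Tbx1, 42.3 for Myh6, 63.9 for Myl2 and 60.8 for Nppa. Ppargc1a rose by 80 points in the mutant pools and Snord82 differed by -77.7. The second heart field list had a median of -28.4 points in mutants, thick filament genes 34.5 and thin filament genes 32.7 points.

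**Figure D5:**
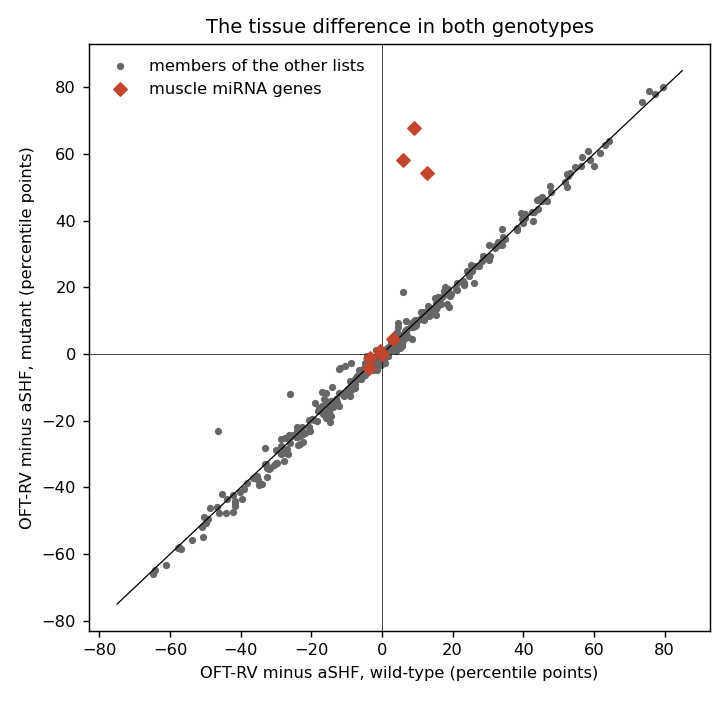
Tissue difference of each member of the gene lists in percentile points (OFT-RV minus aSHF) in wild-type arrays (x axis, 4 against 4) and mutant arrays (y axis, 4 against 4), with equal differences on the line. Most genes lie along the line, and 3 of the muscle miRNA genes (diamonds), Mir1a-2, Mir133a-1 and Mir133a-2, lie far above it.

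The contrast itself differed between genotypes for 37 genes (0.178% of 20842, adjusted p under 0.05 for the interaction of tissue and genotype in limma), and 1220 genes reached an unadjusted p under 0.05. Of the 37, 31 were miRNA genes, a class that held 321 of the 20842 ranked genes. For 36 of the 37 the tissue difference was higher in the mutants. Mir133a-2 differed between the tissues by 9.2 points in wild-type and by 67.9 in mutant pools, a change of 58.7 points (SE 3.02, adjusted p = 9.05e-08), and in mutants it stood at 8.47 to 10.6 in aSHF and 73.8 to 83.9 in OFT-RV. Mir1a-2 went from 5.87 to 58.2 points, a change of 52.3 points (SE 2.46, adjusted p = 5.17e-08), and Mir133a-1 from 12.7 to 54.2, a change of 41.5 points (SE 1.69, adjusted p = 1.51e-08). For these 3 of the 8 muscle miRNA genes measured the tube was thus further above the progenitors in mutants than in wild-type. Genes of the miR-17 cluster, which share a primary transcript, did not move alike between the wild-type tissues. Mir18 and Mir19a differed by -45.2 and -39.7 points in wild-type, Mir20a rose by 33.1 points, and Mir17 did not pass the test (-2.18 points, adjusted p = 0.298). In the mutant pools all 4 were higher in OFT-RV, at 9.78, 30, 51.3 and 22.6 points, and the genotypes differed in the tissue difference of each (adjusted p from 9.05e-08 to 0.00702). The 6 genes that are not miRNA genes, named here because they are few and chosen after their values were seen, were 2610318N02Rik, Prtg, Nanos3, Tspan13, Clcn3 and Defb4, with changes of 14.5, 3.84, 9.71, -3.01, 4.14 and 4.54 points. None of the 6 marks was among the 37.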

How the data were processed

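Total RNA of pooled tissue was hybridised to 1-colour arrays, 1 pool per array. The deposited values are on a log2 scale, and the authors made them with RMA in the oligo package, per the submitters' processing notes (no version given in the sources used here). The tissues were taken as normalized apart, since array medians differ between and not within them. Gene names came from the deposited gene tables. Each of the 20889 listed genes was matched to the probe set with the same mean log2 value and the same mutant minus wild-type difference (tolerance 1e-06). Both had to match in each tissue. Of these, 127 matched several probe sets of equal values, and the first was taken. Left out were 45 genes that shared a probe set and 2 second listings, and 20842 genes were ranked. In 4 deposited tables, 30 columns of values with no matching sample label were not used.

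Ranks were compared with limma 3.58.1 in R 4.3.3 (lmFit, eBayes, 4 against 4 arrays, no block), with Benjamini-Hochberg adjustment over all ranked genes, a threshold of 0.05 and a minimum of 10 points for a large difference. The interaction of tissue and genotype was fitted on 16 arrays. The script was tested on simulated data. Named genes are the 6 marks, the 12 largest differences in each direction in points and the 8 largest on the common scale among genes that passed and did not overlap, and the 4 members of each list with the smallest p. Other members were named to describe their list after their values were seen. The comparison, its marks and all lists were chosen with earlier results of these data known. Alternatives were normal scores, the common scale, ranks over all probe sets or protein-coding genes, dim genes left out, a variance trend, array weights, the replicate block and each array left out. Promoter windows came from RefSeq (GRCm38.p6), searched with 25 bases shown on each side. Tubb3, Spna1, Jarid1d, Mir1-1, Mir1-2 and Mir208b were not among the ranked symbols. Some members of the lists are counted but not reported by name here.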

Additional observations from a re-analysis of the deposited data

Results flagged for a closer look

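In 23 of 274 groups of 4 arrays, each the values of 1 reported gene in 1 tissue, a single array lay apart from the other 3 by more of the group's range than Dixon's critical value for 4 allows, and chance alone does so in about 1 group in 20. The array apart was OFT-RV replicate 1 in 8 groups and aSHF replicate 1 in 5.

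The widest gaps belonged to Y-linked genes, for which replicate 1 was lowest in both tissues. The gap took 0.853 of the range for Ddx3y in aSHF (18.6 against 53.9 to 59.9) and 0.96 in OFT-RV (24.6 against 61.4 to 62.9). It took 0.891 for Eif2s3y in aSHF and 0.911 in OFT-RV, 0.872 for Kdm5d in aSHF and 0.924 in OFT-RV, and 0.894 for Uty in aSHF and 0.899 in OFT-RV.

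OFT-RV replicate 1 was also apart for Sox2, at 28.9 against 13.8 to 15.9 (0.857 of the range). It was lowest for Gata1, at 54.6 against 59.2 to 59.3 (0.972), for Fabp3, at 92.8 against 93.8 to 93.9 (0.852), and for Ndufb5, at 97.57 against 97.89 to 97.94 (0.882). Six2 was lowest on aSHF replicate 1, at 77.0 against 78.8 to 79.1 (0.834).

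The other gaps were of few points. In OFT-RV they were those of Arg1 (replicate 4 low, 0.868 of the range), Dlx3 (replicate 2 high, 0.861), Mlip (replicate 2 low, 0.855) and Trdn (replicate 3 high, 0.966). In aSHF they were those of Gli1 (replicate 4 high, 0.859), Mir1a-2 (replicate 4 high, 0.864), Snora52 (replicate 4 low, 0.892), Tagln (replicate 2 high, 0.929) and Tnni3 (replicate 3 high, 0.849), and of Slc8a1, at 29.9 on replicate 3 against 22.4 to 23.7 (0.831). For each of these 10 genes the difference between the tissues passed the test with every array left out in turn.

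The tissue difference differed between the genotypes for 3 named muscle miRNA genes, by a test of the interaction. It was higher in mutants by 52.32 points for Mir1a-2, 41.48 points for Mir133a-1 and 58.7 points for Mir133a-2.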

How the results depend on the processing

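The count of 15820 genes past the test ranged from 12752 (dim genes left out, so fewer genes tested) to 16223 (normal scores) over the other settings and from 15108 to 15617 with single arrays left out. All 6 marks passed in their direction under every alternative. For the 138 named genes, 2325 of 2330 alternative values lay on the same side of the threshold as the reported one. The other 5, all of sex-linked genes, passed only under the alternative. The 134 named genes that passed kept their direction under every alternative that tested them. Sex-linked genes that did not pass could change sign. With single arrays left out Ddx3y ranged from -3.58 to 15.2 points, Kdm5d from -6.41 to 12.8 and Uty from -24.8 to 2.02. Of the 5251 genes with large differences at most 2 of those tested no longer passed the p threshold under any of 17 alternatives and 0 reversed. Genes that an alternative left out (dim genes, or genes that are not protein-coding) were not counted as lost there. Fewer genes reached 10 points under some alternatives: 2345 higher and 2349 lower with ranks over all probe sets, 2376 and 2530 without dim genes, and 2449 and 2632 over protein-coding genes, against 2546 and 2705. The mutant count of 15901 ranged from 15140 to 16174. The 37 genes that differed between genotypes were 49 on the common scale and 27 to 39 with single arrays left out. No pairing is stated, so numbers were not treated as pairs. Deviations of same-numbered arrays of the tissues correlated by 0.2649, 0.4436, -0.0381 and 0.0420 in wild-type. In mutant pools the values were 0.1658, 0.0245, 0.0585 and 0.097. Of 4 wild-type aSHF arrays 2 correlated best with their own number, and of 4 wild-type OFT-RV arrays 2. Among the mutant arrays, aSHF replicates 1, 3 and 4 and OFT-RV replicates 1, 2 and 4 correlated best with their own number. Mutant aSHF replicate 2 and OFT-RV replicate 3 correlated best with each other (0.1289). Xist was ordered alike by number in both wild-type tissues, and replicate 1 was lowest for the 4 Y-linked genes in both. Whether same-numbered pools share embryos was not tested. The replicate block called 15818 genes, 15570 in mutants and 34 between genotypes (26 shared with the 37), and made Ddx3y and Uty pass, so 1 sex-linked gene was lower by 10 points. Ranks over all probe sets moved list medians to -22.7 (second heart field), 2.75 (core factors), 29 (thick filament), 27.2 (thin filament), 23.1 (calcium), 29.2 (chamber), 13.4 (smooth muscle), 4.07 (endothelium), -27.6 (pharyngeal), -13.8 (retinoic acid), -10.9 (fibroblast growth factor), -6.74 (Notch and Hedgehog), -2.55 (cell cycle), 5.31 (oxidative phosphorylation) and -0.247 points (reference), and turned the epicardial median from 0.112 to -0.359. They left 3 erythroid and 2 muscle miRNA genes higher and 0 cell cycle and 0 reference genes lower by 10 points. Ranks over protein-coding genes gave -2.46 for the cell cycle and -2.32 for the sex-linked list, reversed from 0.272. Without dim genes the medians were 38.4 (thick filament), 11.4 (fuel) and 3.07 (muscle miRNA genes, 0 higher by 10 points). Without replicate 1 of both tissues they were 33 (chamber), -29.2 (pharyngeal) and -25 (Hox), and 2 sex-linked genes were lower by 10 points. With single arrays left out, medians ranged from -28.2 to -25.1 (second heart field), 14.4 to 15.4 (smooth muscle), -12.4 to -11.4 (fibroblast growth factor), -27.7 to -25.5 (Hox), -1.05 to 1.46 (epicardium) and -6.41 to 2.02 points (sex-linked), and counts higher by 10 points from 0 to 1 (cushion) and 1 to 2 (muscle miRNA genes). The cause of these shifts was not tested. Dim genes limit what ranks can show, and whatever the separate normalization left in the ranks cannot be told apart from tissue.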

Other observations

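Genes of miRNAs as a class were measured by 321 ranked symbols, most of them dim. Of these, 46 were higher in wild-type OFT-RV by at least 10 points (14.3%) and 18 lower (5.61%), against 12.2% and 13.0% of all genes.

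Among the mutant OFT-RV arrays, replicate 4 stood apart for Postn, the matrix protein periostin, at 89.4 against 30.1 to 33.3 on the other arrays, and for Dcn, the proteoglycan decorin, at 78.4 against 28.3 to 34.7.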
